A study of Mus musculus with 34 samples.

Results

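The RNA of 56 genes of mouse chromosome 18, out of 54354 genes in the deposited table, was followed in the Degs1-knockout line clone2 and its controls. They were given as a list of gene names, chosen by their place on a chromosome whose RNA, as the log2 ratio of clone2 to Scrambled, had been seen to be shifted in these same libraries. Each name matched 1 protein-coding entry on chromosome 18 (mm10, GENCODE M21). The clone2 values therefore belong to the choice of genes and are given as a description, with no test. Of the 56, 55 had enough counts to be fitted. Abhd3, named for its hydrolase fold, had a median of 0 CPM in clone2, clone1 and Scrambled libraries and was left out.

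A cell that gains a copy of a chromosome usually makes more RNA from the genes on it, and the extra RNA tends to follow the number of copies. Single genes can lie above or below that proportion, since feedback on transcription, RNA decay and the state of the cell also set their level. Many proteins act in complexes whose other subunits lie on other chromosomes, so a gain of 1 chromosome can leave the RNAs of a complex out of proportion. The line log2(3/2), 0.58, marks where RNA would lie if 3 copies stood in place of 2 and RNA followed copies in proportion. DNA was not measured in these files, so a gained copy in every cell, a gained copy in some cells and more RNA per copy cannot be told apart.

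The libraries came from mouse colon tumour organoids, 3-dimensional epithelial cultures, all of the genotype given as AKP, the controls included. Groups were the Degs1 knockout lines clone2 (9 libraries) and clone1 (9), the Scrambled CRISPR control (3), the hairpin against Yap1 (shYAP, 3) and the hairpin control (shControl, 10). Each CRISPR group was a single line, so clone2 stands for 1 clone. Whether replicates came from separate cultures was not labelled, and p-values set a difference against a spread that may be only technical.

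Total counts ran from 3824998 to 6597099 in clone2, from 883253 to 5346951 in clone1, from 4152399 to 6321118 in Scrambled, from 4238192 to 4467248 in shYAP and from 1747533 to 5914945 in shControl. Levels below are CPM, counts relative to the library total scaled by the TMM method, and differences are log2 fold changes with their standard error (SE). Degs1, the gene targeted in the clones, averaged 1.71 ± 0.893 CPM in clone2 and 2.41 ± 1.32 in clone1 (SD, n = 9 each), against 7.74 ± 2.62 CPM in Scrambled (SD, n = 3). All 10 colon epithelial markers checked averaged at least 1 CPM in clone2, clone1 and Scrambled. Summed fibroblast, immune and endothelial markers stayed at or under 3.12 CPM in every library, with the fibroblast genes Col1a2 and Col3a1 and the T cell gene Cd3e at 0 throughout. The summed epithelial markers were lower in clone2, at 2806 to 3587 CPM, against 5117 to 5363 CPM in Scrambled, with Lgals4 carrying most of the gap in the sum. The size of the gap depended on the control, since the sum was 3651 to 4099.6 CPM in shControl. It was 3649.6 to 3841 CPM in shYAP and 5629.8 to 6679.5 CPM in clone1. Of the 10 markers, 9 lay below 0 in clone2 minus Scrambled, with a median of -0.66. Cdh1, Krt8, Krt18, Cldn7, Lgals4 and Cdx2 were lower (edgeR adjusted p from 2.53e-08 to 0.00128) and Krt19 was higher (edgeR adjusted p = 0.0235), beside 33.1% of all genes tested that passed in this comparison. In clone2 minus shControl the median was -0.37, with 7 of the 10 markers lower and 1 higher. Over all 11960 genes tested there, 2370 were lower and 2240 higher. The part of that shift in the values below was not tested, and fewer cells of a type and less RNA per cell cannot be told apart in bulk RNA.

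In clone2, RNA from chromosome 18 lay above the Scrambled control in every library. The median log2 ratio of the 55 genes to the Scrambled mean was 0.44, 0.39, 0.40, 0.34, 0.31, 0.41, 0.29, 0.31 and 0.39 in clone2 replicates 1 to 9. In the 9 clone1 libraries it ran from -0.01 to 0.13, and each Scrambled library, set against the other Scrambled libraries, gave -0.03, -0.0024 and 0.0022. The 3 shYAP libraries gave -0.12, -0.02 and -0.04, and the 10 shControl libraries ran from -0.12 to 0.02. Thus the 9 clone2 libraries lay above all 25 others, with no overlap. The mean was 0.36 ± 0.05 in clone2, 0.05 ± 0.05 in clone1 (SD, n = 9 each) and -0.01 ± 0.02 in Scrambled (SD, n = 3).

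**Figure D1:**
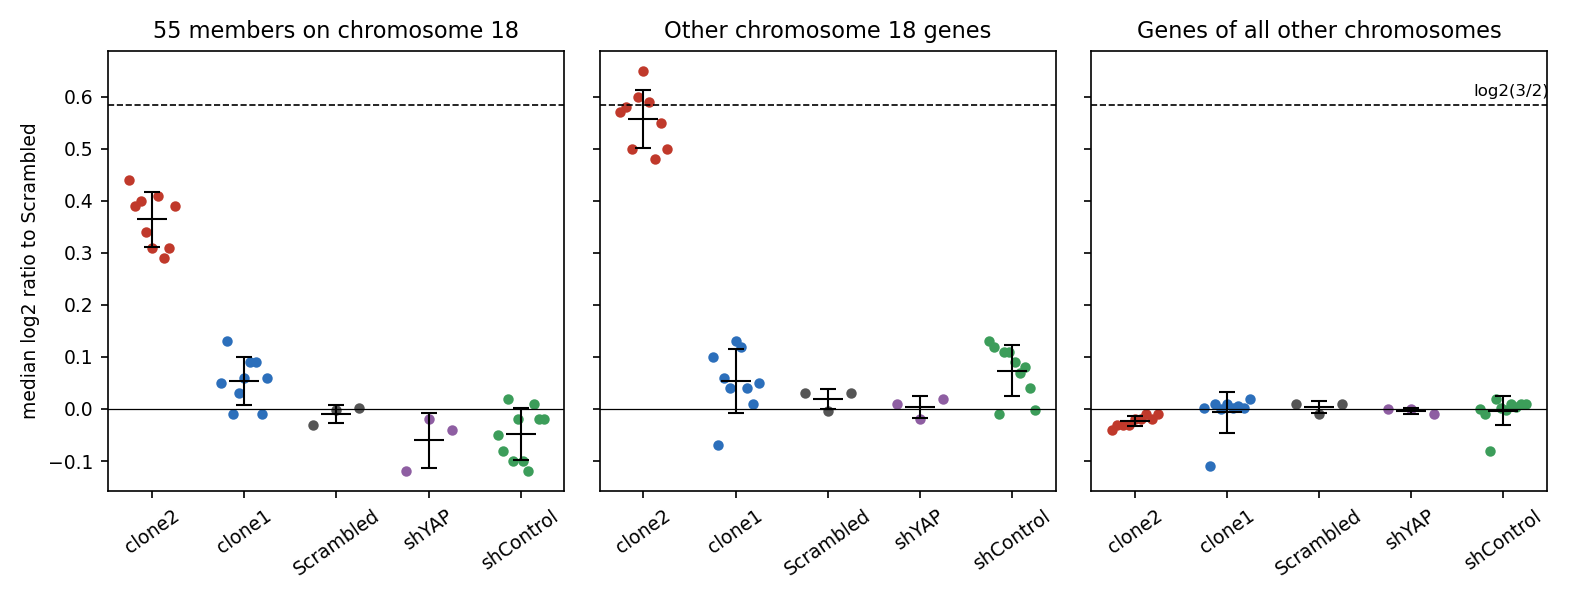
Median log2 ratio to the Scrambled mean in each library (points) for the 55 listed genes, the other chromosome 18 genes and the genes of all other chromosomes, with group mean and SD (bars); the dashed line is log2(3/2). The clone2 points sit at 0.29 to 0.44 for the listed genes and at 0.48 to 0.65 for the other chromosome 18 genes, while genes of other chromosomes sit near 0 in all groups.

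The listed genes lay lower than the rest of their chromosome. The other chromosome 18 genes had per-library medians from 0.48 to 0.65 in clone2, from -0.07 to 0.13 in clone1 and from -0.0036 to 0.03 in Scrambled. Genes of other chromosomes had per-library medians from -0.04 to -0.01 in clone2. In the fit of clone2 against Scrambled, the median difference was 0.34 over the 55 listed genes, 0.57 over 236 other chromosome 18 genes, -0.04 over the genes of other chromosomes and -0.03 over all 11514 genes tested. Restricted to genes averaging a log2 CPM of 3 or more, the medians were 0.34 over 47 listed genes and 0.64 over 148 others of the chromosome. In clone2 minus shControl the gap was smaller, with 0.40 over the listed genes and 0.43 over 246 others. How the 56 were picked among the genes of the chromosome is not given in the sources used here, and its part in this gap was not tested. Of all counts, chromosome 18 took 3.93% to 4.31% in clone2, 2.69% to 2.92% in clone1, 2.88% to 2.95% in Scrambled, 2.70% to 2.74% in shYAP and 2.84% to 3.04% in shControl.

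The listed genes alone took 0.403% to 0.458% of counts in clone2, against 0.337% to 0.358% in Scrambled. A single gene, Ier3ip1, carried much of that gap. Without it the share was 0.332% to 0.399% in clone2, against 0.314% to 0.335% in Scrambled, and the ranges overlapped. The median difference of clone2 minus Scrambled hardly moved without Ier3ip1, at 0.33 over 54 genes.

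The shift ran along the whole chromosome. In windows of 10 Mb the median over all chromosome 18 genes, clone2 minus Scrambled, was 0.60 from 0 to 10 Mb and also from 10 to 20 Mb, 0.34 from 20 to 30 Mb and 0.39 from 30 to 40 Mb. From 40 Mb onward the windows gave 0.57, 0.54, 0.47, 0.52 and 0.47, up to 90 Mb. The last window held 2 genes. In clone1 minus Scrambled the windows up to 90 Mb ran from -0.10 to 0.31. The median of chromosome 18 in clone2 minus Scrambled was 0.47 over 291 genes, 78.0% of them above 0, while the other autosomes had medians from -0.14 on chromosome 5 to 0.13 on chromosome 15. The 15 genes of the mitochondrial genome had a median of 0.60, which depended on the control. Their median was 0.12 in clone2 minus shControl, 0.13 in clone2 minus clone1 and -0.48 in Scrambled minus shControl. Across the 55 listed genes, the difference in clone2 had a Pearson r of -0.06 with position, -0.16 with the log of annotated gene span and 0.37 with mean log2 CPM (Spearman rho -0.13, 0.04 and 0.23). These are descriptions over genes of the same libraries.

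**Figure D2:**
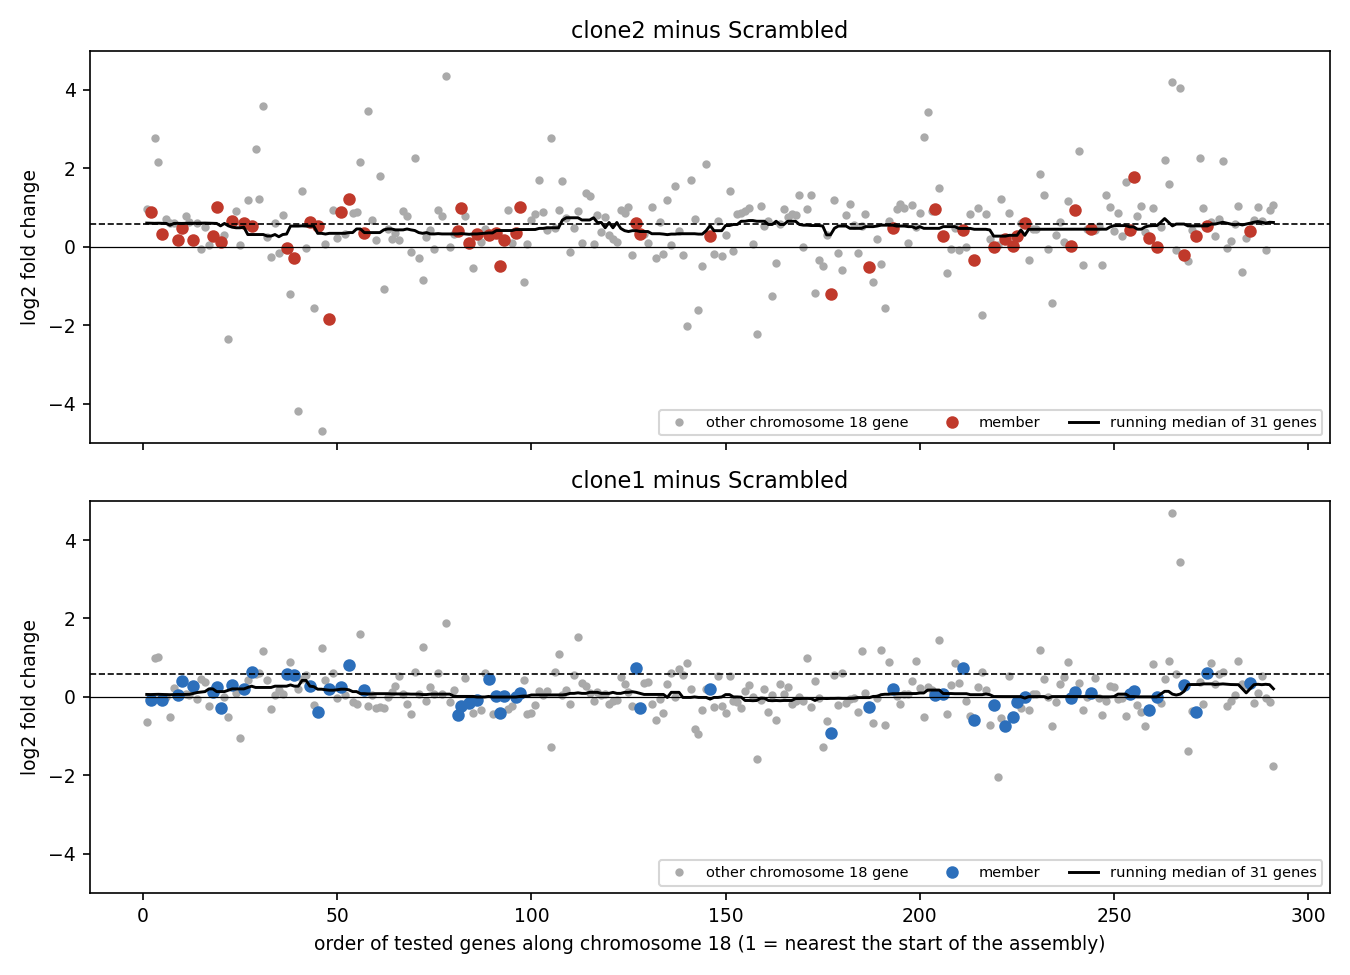
Log2 fold change of each tested chromosome 18 gene in order along the chromosome, clone2 minus Scrambled above and clone1 minus Scrambled below; large points are the listed genes, small points other genes, the solid line a running median of 31 genes and the dashed line log2(3/2). The running median stays above 0 along the chromosome in clone2 and near 0 in clone1.

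Single genes lay on both sides of that shift. Of the 55 genes, 46 lay above 0 in clone2 minus Scrambled (83.6%), against 181 of 236 other chromosome 18 genes (76.7%) and 47.1% of genes of other chromosomes. The difference was under 0.29, which is less than 0.5 of log2(3/2), for 25 genes, from 0.29 to 0.88 for 21 and above 0.88 for 9. In shares, this was 45.5%, 38.2% and 16.4% of the listed genes, beside 36.02%, 32.6% and 31.4% of the other chromosome 18 genes and 69.4%, 19.4% and 11.1% of all genes tested. The first group is called the low band in what follows. It holds the 9 genes at or below 0 as well as genes whose SE exceeds their difference, so the name says nothing of a gain held back. Kdm3b, Psmg2, Fech, Txnl4a, Rock1 and Rbm27 stood just below the lower edge, with values from 0.26 to 0.29, and Cdc23 and Hdac3 just above it at 0.33. The standard deviation over the genes was 0.55 in clone2 minus Scrambled and 0.37 in clone1 minus Scrambled, while the median SE of a gene was 0.17 in both. In clone2 minus Scrambled the standard deviation was 1.09 over the other chromosome 18 genes and 1.04 over genes of other chromosomes, so the listed genes spread less than either. Among genes averaging a log2 CPM of 3 or more it was 0.43 over the listed genes, 0.76 over the other chromosome 18 genes and 0.82 over genes of other chromosomes. Neither trait was particular to clone2 or to the chromosome. In clone1 minus Scrambled the listed genes, at 0.37, also spread less than the other chromosome 18 genes (0.66) and other chromosomes (0.72). In Scrambled minus shControl these values were 0.34, 0.59 and 0.67. The wider spread in clone2 than in clone1 was also seen on other chromosomes. Every clone2 library lay above every Scrambled library for 16 of the 55 genes (29.1%) and for 99 of the 236 others on the chromosome (41.9%), against a background of 12.6% of all genes tested. Every clone2 library lay below every Scrambled library for 3 listed genes (5.45%) and for 16 of the 236 others (6.78%), against a background of 12.0%.

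**Figure D3:**
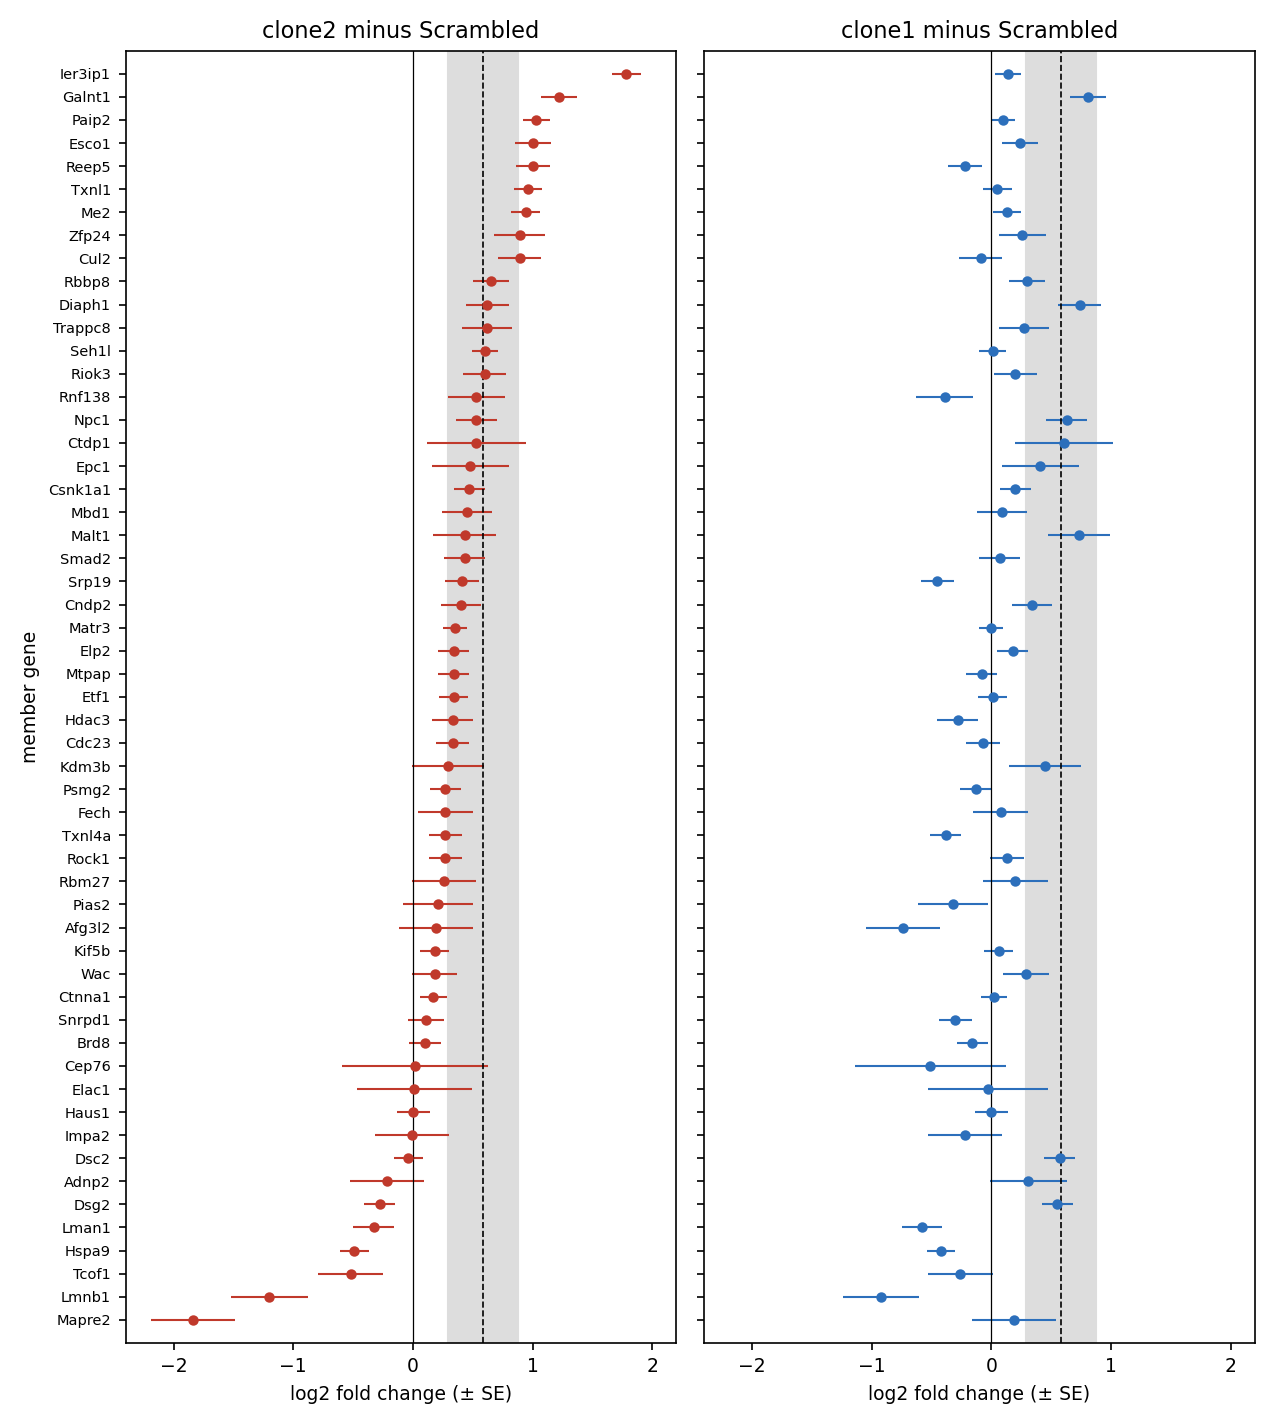
Log2 fold change with SE of the 55 genes, sorted by clone2 minus Scrambled (left) and in the same order for clone1 minus Scrambled (right); the grey band runs from 0.29 to 0.88 and the dashed line is log2(3/2). In clone2 the genes run from Ier3ip1 at 1.78 to Mapre2 at -1.84, and in clone1 from 0.81 to -0.92 in a different order.

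Genes of the secretory pathway and of lipid and small-molecule metabolism had a median of 0.53 in clone2 minus Scrambled over the 9 fitted, 7 of them above 0, and included Ier3ip1, the listed gene farthest above the line. Against shControl the median was 0.65, with 9 of 9 above 0. Ier3ip1 (76930017 to 76941612), which encodes a small membrane protein of the endoplasmic reticulum needed for secretion, ran from 606 to 875 CPM in clone2 with a median of 719.7, against 206, 226 and 212 CPM in Scrambled. It was 206 to 253 CPM in clone1, 233, 229 and 245 CPM in shYAP and 208 to 337 CPM in shControl, so the lowest clone2 library lay above every other library. The difference was 1.78 ± 0.12, a fold of 3.43, and 1.64 ± 0.08 against clone1. An annotated entry on the same strand, Gm50364, overlaps Ier3ip1 and had up to 409 counts in a library, so reads may be divided between them.

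Galnt1 (24205344 to 24286818), which encodes an enzyme that starts mucin-type O-glycosylation in the Golgi, ran from 44.7 to 54.3 CPM in clone2 (median 49.4) and from 27.7 to 44.1 in clone1 (median 34.3), against 19.2, 20.3 and 23.4 CPM in Scrambled. All 9 clone2 libraries lay above all clone1 libraries, and all clone1 libraries above all Scrambled ones. The difference was 1.22 ± 0.15 for clone2 minus Scrambled, a fold of 2.33. Reep5, which shapes tubules of the endoplasmic reticulum, ran from 107 to 184 CPM in clone2 (median 164), against 77.05, 78.1 and 76.4 CPM in Scrambled, with no overlap, and clone2 minus clone1 was 1.22 ± 0.10.

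Srp19, a protein of the signal recognition particle that brings nascent secretory proteins to the endoplasmic reticulum, ran from 67.1 to 100.2 CPM in clone2 (median 82.5), against 56.7, 76.7 and 50.2 CPM in Scrambled. It lay above the highest Scrambled library in 6 of 9 clone2 libraries, with a difference of 0.41 ± 0.14 that became 0.62 without Scrambled replicate 2. Npc1, which exports cholesterol from lysosomes, ran from 22.4 to 33.4 CPM in clone2 (median 24.3), against 15.5, 18.4 and 20.5 CPM in Scrambled, and Trappc8, a subunit of the TRAPP tethering complex, from 10.9 to 17.95 CPM (median 14.3), against 8.79, 7.73 and 11.4. Their differences of 0.53 ± 0.17 and 0.62 ± 0.21 stood near log2(3/2). Npc1 shares its locus with Rmc1 on the other strand, which had up to 326 counts.

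Lman1 and Impa2 were the genes of this role in the low band, both with differences at or below 0. Lman1, a cargo receptor for glycoproteins leaving the endoplasmic reticulum, ran from 18.3 to 36.5 CPM in clone2 (median 24.96), against 31.004, 35.3 and 33.1 CPM in Scrambled, with 7 of 9 clone2 libraries below all Scrambled ones and a difference of -0.33 ± 0.17. Impa2, an inositol monophosphatase, ran from 7.17 to 22.1 CPM in clone2 (median 9.85), against 9.49, 13.9 and 10.6 CPM in Scrambled, with a difference of -0.01 ± 0.31. Cndp2, a cytosolic dipeptidase, stood at 0.40 ± 0.17.

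The 6 genes of signalling and protein turnover had a median of 0.50 in clone2 minus Scrambled, and all 6 lay above 0. In clone2 minus shControl the median was 0.49 with 5 of 6 above 0, Malt1 being the exception. Csnk1a1 (61555274 to 61590061) encodes casein kinase 1 alpha, which marks beta-catenin for destruction in the Wnt pathway. It ran from 169 to 217 CPM in clone2 (median 200.04), against 130.5, 145 and 142 CPM in Scrambled, with every clone2 library above every Scrambled one. The difference was 0.47 ± 0.13, a fold of 1.38, and fell short of log2(3/2) by less than its SE. It was 0.33 with clone2 replicates 7 to 9 alone.

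Txnl1, a thioredoxin-like protein bound to the proteasome, ran from 125 to 181 CPM in clone2 (median 153), against 80.7, 74.3 and 75.8 CPM in Scrambled, a difference of 0.96 ± 0.12 with no overlap. Rnf138, a ubiquitin ligase, ran from 13.3 to 31.5 CPM in clone2 (median 22.6), against 13.7, 17.2 and 14.2 CPM in Scrambled, with overlap and a difference of 0.53 ± 0.24. Cul2, the scaffold of a cullin ubiquitin ligase, stood at 0.89 ± 0.18 and had no overlap. Malt1, a protease of NF-kappaB signalling, stood at 0.43 ± 0.26 against Scrambled but at -0.33 ± 0.19 against shControl and -0.30 ± 0.18 against clone1. Psmg2, a chaperone of proteasome assembly, stood at 0.27 ± 0.13 against Scrambled.

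Genes of chromatin and transcription had a median of 0.38 over 12 in clone2 minus Scrambled, with 11 above 0. This depended on the control, since 7 of 12 lay above 0 against shControl, with a median of 0.23, and 8 of 12 against clone1, with a median of 0.30. Smad2, which carries TGF-beta signals to the nucleus, ran from 29.5 to 52.3 CPM in clone2 (median 39.8), against 26.6, 28.5 and 31.7 CPM in Scrambled, and 8 of 9 clone2 libraries lay above all Scrambled ones. The difference was 0.43 ± 0.17. Hdac3, the histone deacetylase of the nuclear receptor corepressor complexes, ran from 24.97 to 37.3 CPM in clone2 (median 32.4) and from 14.1 to 22.9 in clone1 (median 21.1), against 31.7, 19.96 and 22.96 CPM in Scrambled. Its difference of 0.33 ± 0.17 in clone2 was 0.53 without Scrambled replicate 1, the highest of the 3. Kdm3b, a histone H3 lysine 9 demethylase, ran from 5.38 to 13.02 CPM in clone2 (median 7.37), against 6.48, 6.96 and 5.49 CPM in Scrambled, with a difference of 0.29 ± 0.30 that is smaller than its SE.

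Of the remaining chromatin genes, Zfp24, a zinc-finger transcription factor, stood at 0.89 ± 0.21 and Rbbp8, which begins resection of broken DNA ends, at 0.65 ± 0.15, both with no overlap with Scrambled. The RNA polymerase II phosphatase gene Ctdp1, the NuA4 acetyltransferase gene Epc1 and the methyl-CpG binding protein gene Mbd1 stood at 0.53, 0.48 and 0.45. In the low band were also the SUMO ligase gene Pias2 at 0.21, Wac, an adaptor for histone H2B ubiquitination, at 0.18, the NuA4 bromodomain gene Brd8 at 0.10 and the homeobox gene Adnp2 at -0.22.

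Genes of RNA processing and translation had a median of 0.31 over 10 in clone2 minus Scrambled and of 0.40 in clone2 minus shControl, where 8 of 10 lay above 0. Paip2 (35598617 to 35617187), an inhibitor of the poly(A)-binding protein in translation, ran from 331 to 419.9 CPM in clone2 (median 355), against 181, 174 and 177 CPM in Scrambled, and the difference was 1.03 ± 0.11 with no overlap. It was 156 to 224 CPM in clone1, so clone2 stood apart from both. Riok3, an atypical kinase that binds ribosomal subunits, ran from 33.4 to 53.01 CPM in clone2 (median 41.9), against 34.01, 27.4 and 18.9 CPM in Scrambled, with a difference of 0.60 ± 0.18 that moved between 0.40 and 0.79 when Scrambled replicate 3 or 1 was left out.

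Txnl4a, a protein of the U5 splicing particle, ran from 113 to 178 CPM in clone2 (median 151), against 128, 130.3 and 104 CPM in Scrambled, a difference of 0.27 ± 0.14. Naa12 overlaps Txnl4a on the same strand and had up to 478 counts, so their reads may be divided. Tcof1, which promotes transcription of ribosomal RNA genes, ran from 6.98 to 16.8 CPM in clone2 (median 12.5), against 15.7, 19.3 and 18.7 CPM in Scrambled, with 7 of 9 clone2 libraries below all Scrambled ones and a difference of -0.52 ± 0.27 that was -0.21 with clone2 replicates 7 to 9 alone. Matr3, a nuclear matrix RNA-binding protein, at 0.35, and the translation release factor gene Etf1 at 0.34 had no overlap with Scrambled. The Elongator gene Elp2 stood at 0.34, Rbm27, an RNA-binding protein gene, at 0.26, the Sm-ring gene Snrpd1 at 0.11 and Elac1, which acts on tRNA ends, at 0.01 ± 0.48.

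The 5 mitochondrial genes had a median of 0.27 in clone2 minus Scrambled and of 0.55 in clone2 minus shControl. In both, 4 of 5 lay above 0 and Hspa9 lay below. Me2, the mitochondrial malic enzyme, ran from 96.02 to 118 CPM in clone2 (median 109) and from 50.03 to 73.1 in clone1 (median 62.8), against 54.8, 56.3 and 54.9 CPM in Scrambled, a difference of 0.94 ± 0.12 for clone2 with no overlap with either. Hspa9 (34937414 to 34954357), the mitochondrial Hsp70 chaperone that pulls proteins into the matrix, ran from 157 to 216 CPM in clone2 (median 189) and from 151 to 254 in clone1 (median 185), against 260.3, 245 and 271 CPM in Scrambled. All 9 clone2 libraries lay below all Scrambled ones, with a difference of -0.49 ± 0.12. Against shControl, at 156 to 267 CPM, clone2 minus shControl was -0.12 ± 0.10, so the distance depended on the control. The mitochondrial poly(A) polymerase gene Mtpap stood at 0.34, the ferrochelatase gene Fech, for the last step of heme synthesis, at 0.27, and Afg3l2, of the m-AAA protease, at 0.19 ± 0.31.

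The 7 genes of cell division and the nuclear envelope had a median of 0.02 in clone2 minus Scrambled and the widest spread of the roles, an SD of 1.01. In clone2 minus shControl the median was 0.10, with 4 of 7 above 0. Esco1, which acetylates cohesin, ran from 45.9 to 64.5 CPM in clone2 (median 58.7), against 29.2, 21.7 and 33.9 CPM in Scrambled, a difference of 1.002 ± 0.15 with no overlap. Seh1l (67774876 to 67795487), shared by the nuclear pore and the GATOR2 complex of nutrient sensing, ran from 232 to 315 CPM in clone2 (median 263) and from 138 to 207 in clone1 (median 176), against 182, 159.8 and 192 CPM in Scrambled. Its difference of 0.60 ± 0.11, a fold of 1.51, lay closest to log2(3/2) of the listed genes, with no overlap. Cdc23, a subunit of the anaphase-promoting complex, ran from 33.8 to 49.5 CPM in clone2 (median 43.003), against 34.2, 31.4 and 36.98 CPM in Scrambled, a difference of 0.33 ± 0.14. Kif20a lies opposite Cdc23 and had up to 482 counts.

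Lmnb1 (56707813 to 56753424), lamin B1 of the nuclear envelope, ran from 1.51 to 5.79 CPM in clone2 (median 4.502) and from 2.73 to 8.55 in clone1 (median 4.22), against 7.404, 11.1 and 8.13 CPM in Scrambled. Every clone2 library lay below every Scrambled one, and the difference was -1.20 ± 0.32. Mapre2, a microtubule end-binding protein, ran from 0.787 to 3.72 CPM in clone2 (median 1.97) and from 4.68 to 14.4 in clone1 (median 8.65), against 5.32, 8.35 and 7.52 CPM in Scrambled, with no overlap of clone2 with either. The difference was -1.84 ± 0.35 against Scrambled and -2.03 ± 0.28 against clone1, both on few counts. Haus1, of the augmin complex that branches spindle microtubules, stood at 0.0037 ± 0.14 and the centrosomal gene Cep76 at 0.02 ± 0.61. The abundant Atp5a1 lies opposite Haus1.

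The 6 genes of adhesion and the cytoskeleton had a median of 0.18 in clone2 minus Scrambled, where 5 of them lay in the low band, and of 0.35 in clone2 minus shControl, where 5 of 6 lay above 0. Ctnna1 (35118859 to 35254779), alpha-catenin, which ties cadherin junctions to actin, ran from 381 to 566 CPM in clone2 (median 408), against 389.9, 349 and 397 CPM in Scrambled. It lay above the highest Scrambled library in 6 of 9 clone2 libraries, with a difference of 0.17 ± 0.11 that was 0.02 with clone2 replicates 7 to 9 alone. Rock1, a kinase that drives actomyosin contraction, ran from 34.2 to 49.9 CPM in clone2 (median 42.6), against 41.9, 32.02 and 30.7 CPM in Scrambled, a difference of 0.27 ± 0.14 that was 0.41 without Scrambled replicate 1. Diaph1, a formin that builds actin filaments, ran from 22.9 to 34.6 CPM in clone2 (median 30.7), against 17.1, 18.9 and 21.7 CPM in Scrambled, with no overlap and a difference of 0.62 ± 0.18.

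The desmosomal cadherins Dsg2 and Dsc2 had no positive difference from Scrambled in clone2. Dsg2 ran from 36.8 to 51.9 CPM in clone2 (median 41.96) and from 57.6 to 84.9 in clone1 (median 80.7), against 49.98, 53.7 and 54.7 CPM in Scrambled. Dsc2 ran from 53.2 to 85.02 CPM in clone2 (median 63.9) and from 87.1 to 113 in clone1 (median 103), against 65.7, 69.9 and 65.2 CPM in Scrambled. The clone1 libraries lay above Scrambled for both genes, while 8 of 9 clone2 libraries lay below it for Dsg2. The differences in clone2 minus Scrambled were -0.28 ± 0.13 for Dsg2 and -0.04 ± 0.12 for Dsc2. In clone2 minus shControl Dsg2 was again below 0, at -0.38 ± 0.10, while Dsc2 was at 0.34 ± 0.09, close to the listed genes' median of 0.40. Kif5b, a motor on microtubules, stood at 0.18 ± 0.12 against Scrambled.

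**Figure D4:**
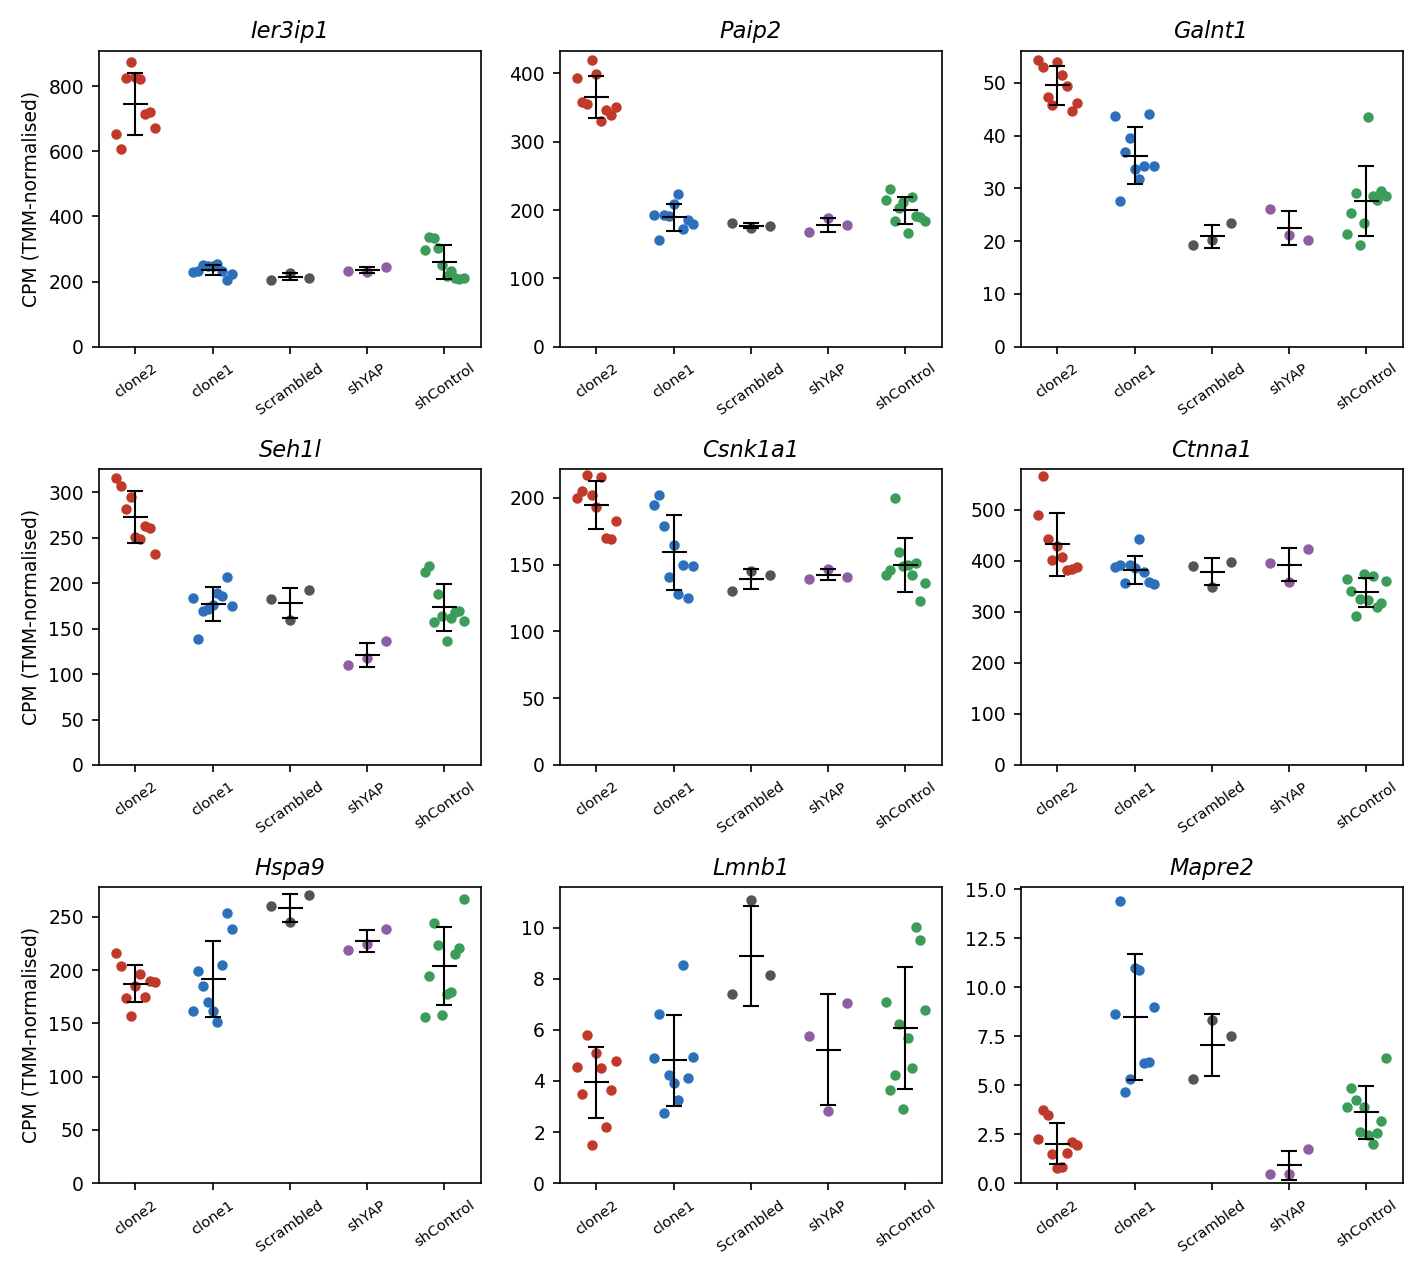
CPM in every library (points) with group mean and SD (bars) for 9 of the genes, in the order clone2, clone1, Scrambled, shYAP and shControl. Ier3ip1 and Paip2 in clone2 lie above all other libraries, Seh1l in clone2, at 232 to 315 CPM, lies above all others, Ctnna1 overlaps, and Hspa9, Lmnb1 and Mapre2 in clone2 lie below all 3 Scrambled libraries.

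The clone1 line, also a Degs1 knockout, had a chromosome 18 median of 0.06 against Scrambled, with 57.7% of 291 genes above 0. Its other autosomes ran from -0.25 on chromosome 4 (27.2% of 714 genes above 0) and -0.24 on chromosome 9 (29.1% of 656) to 0.14 on chromosome 3. The listed genes could be tested one by one in clone1. Of the 55 genes, 5 rose and 3 fell in clone1 against Scrambled (edgeR's quasi-likelihood test, Benjamini-Hochberg adjusted over 11514 genes). That is 8 of 55, beside 12.7% of all genes tested, of which 5.96% were higher and 6.71% lower. Galnt1 rose by 0.81 ± 0.15 (edgeR adjusted p = 0.000155) and was higher in 9 of 9 clone1 libraries. Dsc2 and Dsg2 rose by 0.57 ± 0.13 and 0.55 ± 0.13 (edgeR adjusted p = 0.00187 and 0.00377), in all clone1 libraries, and Diaph1 by 0.74 ± 0.18 (edgeR adjusted p = 0.00435). Npc1 rose by 0.63 ± 0.17 (edgeR adjusted p = 0.0113). Clone1 levels ran from 23.9 to 35.8 CPM for Npc1 and from 22.04 to 43.2 CPM for Diaph1.

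Lman1 fell by 0.58 ± 0.17 in clone1 (edgeR adjusted p = 0.0167), Hspa9 by 0.42 ± 0.12 (edgeR adjusted p = 0.0172) and Srp19 by 0.45 ± 0.14 (edgeR adjusted p = 0.0264). Lman1 ran from 18.5 to 31.01 CPM and Srp19 from 33.4 to 52.1 CPM in clone1. The number called was 4, 5 and 7 when Scrambled replicate 1, 2 or 3 was left out. Hspa9 lost its call with any of the 3 left out (edgeR adjusted p from 0.0514 to 0.0877), Srp19 and Npc1 with replicate 1 or 2, Lman1 with replicate 2 or 3 and Diaph1 with replicate 1. Srp19 moved most, to -0.24 without replicate 2 (edgeR adjusted p = 0.433). Galnt1, Dsg2 and Dsc2 kept their calls in each of these fits. The median difference over the 55 genes was 0.07, beside 0.03 over all genes tested. Both clones were set against the same 3 Scrambled libraries, and no fit set clone1 against shControl. Hspa9 averaged 192 ± 35.9 CPM in clone1 and 204 ± 36.6 CPM in shControl, against 259 ± 12.97 CPM in Scrambled (SD). Lman1, also lower in clone1, stood in clone2 at -0.33 against Scrambled and at 0.08 against shControl. The part of the control in these falls was not tested.

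The libraries labelled shYAP, set against shControl, had 3 higher and 5 lower of the 55 genes, beside 11.4% of 11094 genes tested (5.47% higher and 5.90% lower). Txnl4a was 232, 247 and 205 CPM in shYAP, against 92.2 to 135 CPM in shControl (median 112), with no overlap, and rose by 1.05 ± 0.13 (edgeR adjusted p = 2.78e-05). Reep5 was 116, 105 and 127 CPM in shYAP, against 57.5 to 91.1 CPM in shControl (median 63.1), and rose by 0.76 ± 0.15 (edgeR adjusted p = 0.00267). Srp19 was 87.01, 81.04 and 88.6 CPM in shYAP, against 39.7 to 67.7 CPM in shControl (median 52.2), and rose by 0.69 ± 0.17 (edgeR adjusted p = 0.0114). For these 3 genes no shYAP library overlapped shControl. The share of all genes tested without overlap in this comparison is not given here.

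Npc1 was 10.8, 10.9 and 11.9 CPM in shYAP, against 16.03 to 25.9 CPM in shControl (median 23.6), with a difference of -0.96 ± 0.21 (edgeR adjusted p = 0.00583). Me2 was 26.8, 23.2 and 23.2 CPM in shYAP, against 31.8 to 52.5 CPM in shControl (median 37.9), with -0.68 ± 0.18 (edgeR adjusted p = 0.0155). Mapre2 was 0.479, 0.474 and 1.77 CPM in shYAP, against 2.01 to 6.41 CPM in shControl (median 3.53), with -1.95 ± 0.55 (edgeR adjusted p = 0.0234). For Npc1, Me2 and Mapre2 every shYAP library lay below every shControl library, again with no share over all genes to set beside it.

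Kdm3b was 2.88, 5.92 and 5.74 CPM in shYAP, against 6.68 to 15.6 CPM in shControl (median 10.2), with -1.07 ± 0.32 (edgeR adjusted p = 0.0308). Seh1l was 110.3, 118 and 136 CPM in shYAP, against 136 to 219 CPM in shControl (median 166), with -0.52 ± 0.15 (edgeR adjusted p = 0.0319). Leaving out shYAP replicate 1, 2 or 3 left 3, 4 and 4 calls. Txnl4a, Reep5 and Npc1 kept their calls in each, while Me2, Kdm3b and Seh1l lost theirs in each (edgeR adjusted p from 0.0511 to 0.193). Srp19 lost its call without replicate 1 or 3, and Mapre2 without replicate 1 or 2. The median over the 55 genes was -0.06, beside -0.05 over all genes tested.

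Between the controls, Scrambled minus shControl, 1 of 55 genes passed, beside 2.95% of 11960 genes tested (1.76% higher and 1.19% lower). Me2 was 54.8, 56.3 and 54.9 CPM in Scrambled, against 31.8 to 52.5 CPM in shControl (median 37.9), and rose by 0.50 in Scrambled (edgeR adjusted p = 0.0163), which did not hold with any 1 Scrambled library left out (edgeR adjusted p from 0.0636 to 0.144). The median over the 55 genes was 0.02. The distance of clone2 from shControl was a median of 0.40, with Ier3ip1 at 1.52 ± 0.09, Me2 at 1.46 ± 0.09 and Mapre2 at -0.85 ± 0.29, and 42 of the 55 genes lay above 0. Single genes moved with the control. Malt1, Kdm3b and Epc1, above 0 against Scrambled, stood at -0.33 ± 0.19, -0.37 ± 0.20 and -0.22 ± 0.23 against shControl. Lmnb1 was at -0.63 ± 0.25 against shControl and -1.20 ± 0.32 against Scrambled, and Zfp24 at 0.26 ± 0.16 against shControl and 0.89 ± 0.21 against Scrambled.

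Partner subunits of the listed genes, encoded on other chromosomes, were set beside them in clone2 minus Scrambled. These partners were no part of the list, and their median was -0.22 over 111 genes tested in 17 complexes. Of the 111, 10 were higher and 36 lower (edgeR's quasi-likelihood test, adjusted over all genes), beside 33.1% of all genes tested (16.5% higher and 16.6% lower). In clone1, 3 were higher and 9 lower, which is 12 of 111 beside 12.7% of all genes tested. With clone2 replicates 7 to 9 alone, 30 partners passed in place of 46, while 3215 of all genes passed in place of 3810. Set against shControl, clone2 had 12 partners higher and 26 lower, with a median of -0.13. Over all 11960 genes tested there, 2240 were higher and 2370 lower. Values by complex below are against Scrambled unless stated.

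In the corepressor complex of Hdac3, 4 of 5 partners were lower. Gps2 averaged 20.6 ± 3.23 CPM in clone2 and 36.3 ± 2.26 CPM in Scrambled (SD, n = 9 and 3), a difference of -0.84 ± 0.16 (edgeR adjusted p = 7.32e-05), and the scaffold Ncor1 differed by -0.43 ± 0.17 (edgeR adjusted p = 0.045). Of the nuclear pore and GATOR2 partners of Seh1l, 5 of 12 were lower, among them Nup107 (-0.70 ± 0.17, edgeR adjusted p = 0.00143) and Nup133 (-1.12 ± 0.25, edgeR adjusted p = 0.000612), while Sec13 stood at -0.01. In the Sm ring of Snrpd1, 4 of 6 were lower, led by Snrpf (60.2 ± 7.15 CPM in clone2 and 106 ± 4.66 in Scrambled, SD), and in the anaphase-promoting complex 5 of 14 were lower and 1 higher. Anapc5 differed by -0.83 ± 0.16 (edgeR adjusted p = 0.00013) and Anapc13 by 0.58 ± 0.10 (edgeR adjusted p = 7.94e-06).

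The called partners of Srp19 and Cul2 lay above Scrambled, as those genes did. In the signal recognition particle, 3 of 5 partners of Srp19 were higher, with Srp14 at 337 ± 29.5 CPM in clone2 and 215 ± 5.30 CPM in Scrambled (SD), a difference of 0.63 ± 0.10 (edgeR adjusted p = 1.18e-05). Of the Cul2 ligase partners, 2 of 4 were higher, Eloc by 0.53 ± 0.11 and Rbx1 by 0.44 ± 0.09 (edgeR adjusted p = 0.000193 and 0.000256). The TRAPP partners of Trappc8 were split, with 2 higher and 2 lower of 12. At the adherens junction 3 of 5 partners of Ctnna1 were lower, among them E-cadherin, Cdh1 (-0.55 ± 0.12, edgeR adjusted p = 0.000509), with Ctnnb1 at -0.08. Cdh1 is also one of the 6 epithelial markers that were lower in clone2 minus Scrambled. None of 5 desmosome partners passed in clone2. In clone1 3 of 5 rose, Dsp by 0.93, Jup by 0.54 and Pkp1 by 0.49 (edgeR adjusted p = 1.42e-05, 0.0244 and 0.0495), where Dsg2 and Dsc2 also rose. Of the other complexes, augmin had 3 of 7 lower, Elongator 2 of 5, NuA4 4 of 15 with Ruvbl1 and Ruvbl2 among them, and the m-AAA protease 1 of 4. The U5 partners of Txnl4a had 1 higher and 2 lower of 7, the proteasome assembly partners of Psmg2 had 1 higher and 1 lower of 4, and the single tested partners of Etf1 and Lman1, Gspt1 at -0.04 and Mcfd2 at 0.01, did not pass. Counts by complex moved with the control. Against shControl, 0 of 7 augmin, 0 of 5 Elongator and 0 of 4 m-AAA protease partners passed. The anaphase-promoting complex then had 1 higher and 1 lower of 14, with a median of 0.00089. Lower partners were again 4 of 5 for Hdac3 and were 6 of 12 for Seh1l.

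**Figure D5:**
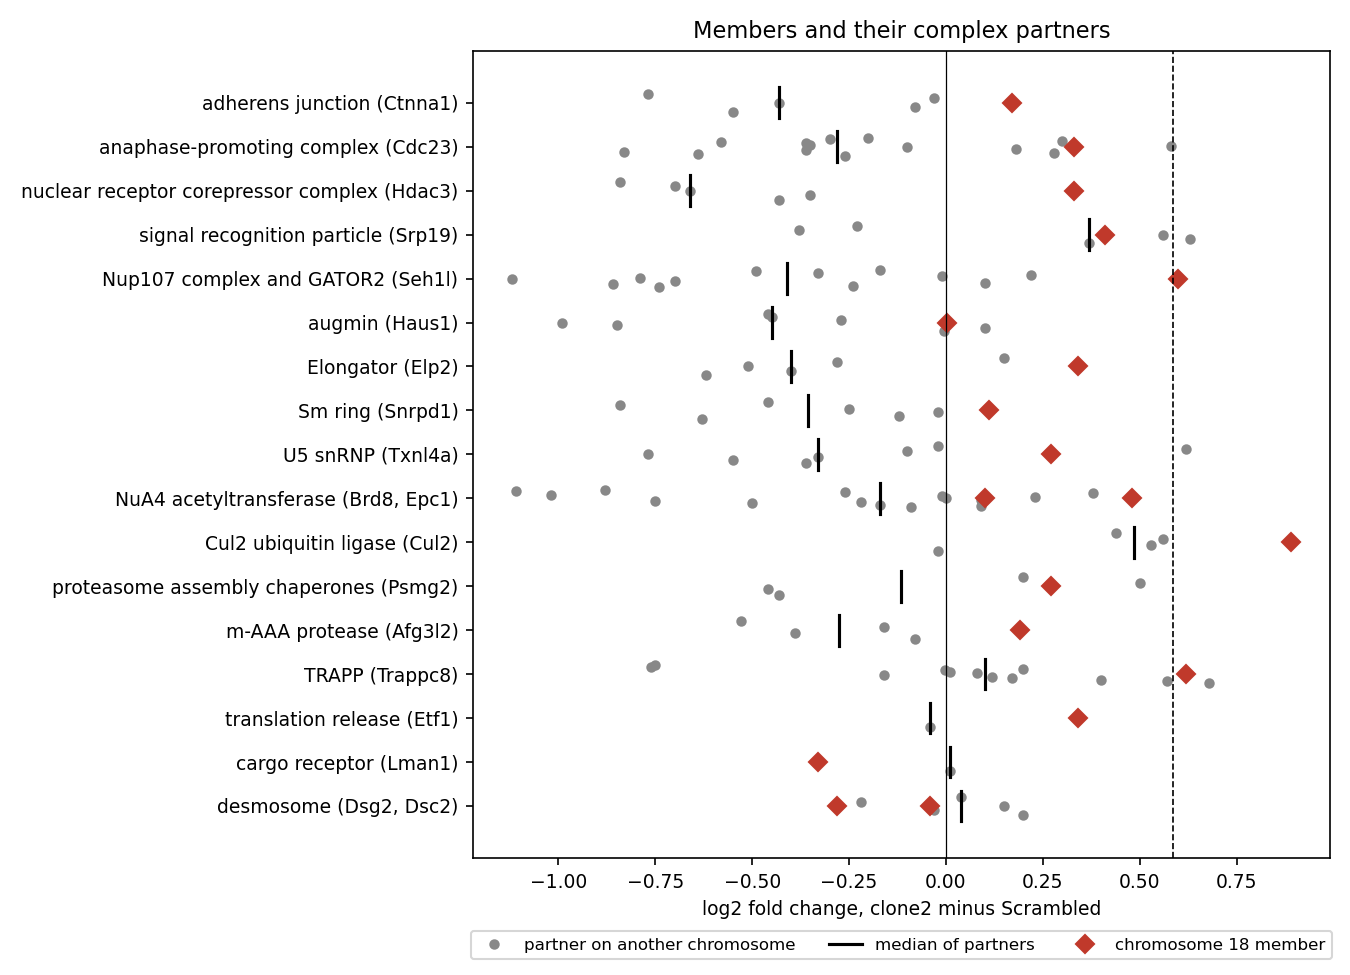
Log2 fold change, clone2 minus Scrambled, of the listed chromosome 18 genes (diamonds) and of their partner subunits on other chromosomes (points, with the median as a bar) for 17 complexes; the dashed line is log2(3/2). Hdac3 at 0.33 stands above all 5 of its partners and Seh1l at 0.60 above all 12, while Srp19 and Cul2 have partners above 0.

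Further genes of chromosome 18 in the Wnt and TGF-beta pathways, outside the list, are given as a description for clone2. Apcdd1, a membrane inhibitor of Wnt signalling, averaged 97.5 ± 40.3 CPM in clone2 and 8.94 ± 2.64 CPM in Scrambled (SD), a difference of 3.43 ± 0.46. Bambi, a decoy receptor of TGF-beta signalling, averaged 132 ± 27.1 CPM in clone2 and 18.9 ± 3.78 CPM in Scrambled, a difference of 2.77 ± 0.32. Scrambled was itself low for both, since shControl averaged 38.4 ± 15.9 CPM for Apcdd1 and 45.5 ± 14.1 CPM for Bambi (SD, n = 10). In clone2 minus shControl the highest value among these Wnt and TGF-beta genes was 1.53, for Bambi. In clone2 minus Scrambled, Smad4, the shared partner of Smad2, stood at 1.17 ± 0.21 and Mcc at 1.41 ± 0.37. The inhibitory Smad7 stood at 0.87 ± 0.41 and Apc, of the beta-catenin destruction complex, at 0.32 ± 0.19. Over the 6 genes fitted, the clone2 median was 1.29 against Scrambled and 0.78 against shControl. In Scrambled minus shControl their median was -0.64, and 0 of 6 lay above 0. In clone1 minus Scrambled, Smad4 rose by 0.88 and Bambi by 0.99 (edgeR adjusted p = 0.00414 and 0.0307), while Apcdd1 stood at 0.26 (edgeR adjusted p = 0.779). The rise of Bambi depended on the control, since it averaged 38.2 ± 12.6 CPM in clone1 (SD), below its shControl mean. For Smad4 the clone1 mean lay above the shControl mean. The difference between clone1 and shControl was not tested. Dcc was near 0 CPM and was not fitted.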

How the data were processed

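Per the labels' protocols, RNA was extracted from organoids, poly(A)-selected and made into directional libraries. The authors deposited expected counts by gene, and the submitters' processing notes name Salmon 1.3.0 and mm10. The annotation release was not given in the sources used here. All deposited values were whole numbers. The listed genes, their roles, the partner and marker lists and the bands were chosen with earlier results of these data known.

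Low genes were removed by filterByExpr (count 10, total 15), and the rest were scaled by TMM and fitted with edgeR 4.0.16 (robust quasi-likelihood, two-sided, Benjamini-Hochberg over all genes tested, threshold 0.05) in R 4.3.3, with the 3 CRISPR groups in 1 fit, the 2 hairpin groups in another and all 34 libraries in 1 more for contrasts between both. Log2 CPM in single libraries used a prior count of 2. Steps were tested on simulated data. There, a difference of log2(3/2) was called for 13.1% of 99 genes given it in clone1 minus Scrambled. In shYAP minus shControl it was called for 5.21% of 96. For a difference of 1 these shares were 50.5% and 40%. Most differences of the size of log2(3/2) were thus missed in the simulated data. Only 68 and 45 genes were called there, against 1459 and 1261 in the data. The adjusted threshold was therefore harder to pass in the simulation, and these shares need not hold for the calls above. Positions came from GENCODE M21 (51485 IDs found, 2869 not). Entries without a gene name held at most 0.0475% of counts. Standard errors cover the spread between libraries. Genes were named in full by a rule: among those averaging a log2 CPM of 3 or more, the 6 highest, 6 lowest and 6 nearest log2(3/2) in clone2 minus Scrambled, 8 fixed genes, and those past the threshold elsewhere. Replicate numbers did not pair libraries (r of their deviations -0.069 to 0.076). Alternatives are given in the closing section, among them DESeq2 1.42.0.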

Additional observations from a re-analysis of the deposited data

Results flagged for a closer look

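In 5 cases a single library lay apart from the rest of their group by Dixon's gap criterion, among 96 groups of values checked, where chance gives about 1 in 20. These were the chromosome 18 share of counts in clone1 replicate 2, the shallowest library, at 2.69%, Ctnna1 at 443 CPM in clone1 replicate 6, Galnt1 at 43.6 CPM in shControl replicate 6, Rnf138 at 20.9 CPM in shControl replicate 5 and Csnk1a1 at 199.9 CPM in shControl replicate 3.

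For 3 genes every clone2 library lay on one side of the Scrambled mean and every clone1 library on the other, and this difference between clones was not tested. The share of all genes tested that did the same is not given here, so the count of 3 has no background beside it. Dsg2 had a mean log2 ratio of -0.27 in clone2 and 0.53 in clone1. Hdac3 had 0.36 in clone2 and -0.30 in clone1. Srp19 had 0.45 in clone2 and -0.43 in clone1. The 3 differ in what they do, as a desmosomal cadherin, a histone deacetylase and a protein of the signal recognition particle.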

How the results depend on the processing

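The median over the 55 genes in clone2 minus Scrambled, minus clone1 and minus shControl, and the per-library median, kept their sign and stayed within the spread between libraries in each alternative run for them, among these other size factors, TMM without chromosome 18, leaving out each Scrambled library, and clone2 replicates 1 to 6 or 7 to 9 alone, the last 2 chosen after seeing the data. Of the single genes named in clone2 minus Scrambled, 317 values over the alternatives lay within 1 SE of the reported one and 13 did not. Calls among the 55 genes were 8 in clone1 minus Scrambled and 4 to 7 with 1 Scrambled library left out, and 8 in shYAP minus shControl and 3 to 4 with 1 shYAP library left out. In Scrambled minus shControl the 1 call (Me2) became 0 with no filter on low counts, 0 with only the compared groups fitted and 0 with each Scrambled library left out; in those fits 8 to 13 of the 55 genes had an unadjusted p under 0.05, and DESeq2 called 1. Partner genes called in clone2 minus Scrambled were 30 with clone2 replicates 7 to 9 alone, in place of 46. Calls over all genes tested were then 3215 in place of 3810. Over all genes tested, calls fell to 804 and 779 in place of 1459 (clone1) without Scrambled replicate 1 or 2, to 509, 412 and 515 in place of 1261 (shYAP) without each shYAP library, and to 191 with only the compared groups and 130, 102 and 195 without each Scrambled library in place of 353 (Scrambled minus shControl); fewer samples were fitted in each. With the replicate number as a block, the listed genes called were 9, 10 and 1 in clone1, shYAP and Scrambled minus shControl. Over all genes tested, 1350, 1730 and 453 were called in these fits. In clone2 minus Scrambled, 36 partner genes were called under the block, beside 2957 of all genes tested. The clone2 medians were 0.35, 0.33 and 0.41, and the replicate numbers do not pair the libraries. Kdm3b lost its shYAP call under the block. Depth limits genes near 1 CPM, such as Mapre2 in shYAP, Cep76 and Elac1.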
